A study of Mus musculus with 30 samples.

Results

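Bmal1, Clock and Npas2, which encode the activators of the circadian clock, and Nr1d1, Nr1d2 and Rora, which encode the nuclear receptors that act back on Bmal1, were described in aged mouse gastrocnemius muscle under a stable and a repeatedly shifted light schedule. The 6 genes were taken by symbol from the deposited expression tables, which hold 56951 gene symbols. Each had 1 transcript, and all 6 were among the 12030 genes with enough reads to be tested.

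Poly(A)-enriched, stranded RNA-seq was carried out on 30 mice, 14 in the LD and 16 in the ADV group, with 1 library each. All were wild-type male C57BL/6J mice kept singly with a running wheel, and after a spell in constant darkness they entered their schedules at 14 weeks of age. LD mice stayed for 64 weeks on a 12-h light, 12-h dark cycle with lights on from 8:00 to 20:00, and ADV mice had the same cycle advanced by 8 h every 4 days, a model of chronic jet lag. Muscle, collected together with the plantaris, was taken between 9:30 and 17:30, when ADV mice were on the same light cycle as LD mice. The hour at which each mouse was killed is not given in the sources used here. Clock transcripts change through the day, so a difference in level and a difference in clock time between mice cannot be told apart in these values.

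BMAL1 pairs with CLOCK or its paralog NPAS2 and switches on genes that carry E-boxes, among them Nr1d1 and Nr1d2. The products of these genes, REV-ERBα and REV-ERBβ, compete with RORα for shared response elements (ROREs), where RORs activate and REV-ERBs repress Bmal1. Because of this loop, Bmal1 and Nr1d1 peak at opposite times of day in most tissues, skeletal muscle included, where the loop also touches metabolic genes.

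The letters of E-boxes and ROREs, the kinds of element through which the loop is known to run, were searched for around the starts of the listed transcripts. Those of the D-box were searched for as well. The matches shown are matches of letters only. In the 250 bases before the start (GRCm39, both strands), none of the 6 genes held the E-box CACGTG, the RORE core TAGGTCA or the D-box TTATGTAA, which 8.29%, 1.52% and 0.499% of the promoters of 12028 tested genes held. Nr1d2 held the nuclear receptor element AGGTCA, which is part of TAGGTCA, at bases -56 to -51, as 10.7% of these promoters held it somewhere. The window was then widened, after this result, to 1000 bases on each side of the start. There, CACGTG was found in Nr1d1 and Nr1d2 (32.7% of all windows), TAGGTCA in Bmal1 (13.8%) and TTATGTAA in Nr1d2 (5.45%). AGGTCA, in 66.1% of all windows, was found in Bmal1, Clock, Nr1d1 and Nr1d2. The 30 bases around the first 3 kinds of match are given 5′ to 3′ on the strand of the gene, with the match in capitals and named by its first base from the start.
Nr1d1 E-box at -367: cagttctccaatCACGTGaagctctcacgt
Nr1d2 E-box at 450: tgccgcactggcCACGTGcacggtgtgttt
Nr1d2 E-box at 553: ggcgggcggagaCACGTGaggccgcggggc
Nr1d2 E-box at 598: gggccggaggaaCACGTGggggcggtgccg
Nr1d2 D-box at 518, reverse strand: gtgacgcagcaTTACATAAtgcgagctggg
Bmal1 RORE core at 77: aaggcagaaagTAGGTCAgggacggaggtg
The Nr1d1 site lies upstream of the gene at chr11:98666509-98666538 (minus strand). The Nr1d2 sites lie downstream of its start at chr14:4231006-4231035, chr14:4231109-4231138, chr14:4231154-4231183 and chr14:4231075-4231104 (plus strand). The Bmal1 site lies downstream of its start at chr7:112806737-112806766 (plus strand). These matches are descriptions of sequence, and no binding was measured here.

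Between 18875468.5 and 28512674 read pairs per library were counted on exons. Exons held 90.9% to 91.3% of the total of LD libraries and 91.1% to 92.7% of that of ADV libraries. ADV mice 25 and 34 had the highest exon shares, 92.0% and 92.7%. The part of this difference in the values of the 6 genes was not tested. In the tested genes the edgeR quasi-likelihood F test called 10.8% at an FDR under 0.05 (5.61% as higher and 5.20% as lower in ADV mice), and 2.09% were DEGs with a fold change over 1.3 as well. The median log2 fold change of all tested genes was 0.0029. ADV mice 24, 25 and 34, named by their label numbers, were singled out after their values were seen, as the lowest of all 30 mice in both Clock and Rora. The trend of each library's log2 values with GC content, fitted as a deviation from the mean over libraries, stood at -0.36 to -0.11 for them at Rora's GC content (41.4%). It stood there at -0.21 to 0.09 in the other 13 ADV mice and at -0.07 to 0.17 in LD mice. ADV mouse 27, at -0.21, lay below mouse 24 in this trend, so the trend alone does not set the 3 apart. Results that change without these 3 libraries are given with and without them. Leaving them out narrows the range of Clock and Rora by construction.

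The 7 skeletal muscle markers were all tested, and their summed level did not differ detectably between the groups (LD median 63972 FPKM, ADV median 64406 FPKM, exact Wilcoxon test, p = 0.886). The summed levels of Schwann cell markers (LD 24.5 to 46.8 FPKM, ADV 26.3 to 81.7 FPKM, p = 0.0194) and of endothelial markers (LD 54.5 to 72.7 FPKM, ADV 63.0 to 80.8 FPKM, p = 0.0245) were higher in the ADV group by the same test, but 0 of 5 and 1 of 6 of these genes, respectively, were called at an FDR under 0.05. Of the 6 endothelial genes, 4 had higher fitted levels in the ADV group, while Vwf (-0.17) and Tek (-0.005) went the other way. All 6 adipocyte markers had higher fitted levels in the ADV group (median log2 fold change 0.65), of which Fabp4 rose (0.36, SE 0.10, edgeR FDR = 0.0231) and Lep stood at 1.57 (edgeR FDR = 0.0538), while their sum overlapped (LD 176.0 to 367.7 FPKM, ADV 188.3 to 684.3 FPKM, exact Wilcoxon test, p = 0.193). All 5 slow fiber markers had higher fitted levels in the ADV group (median log2 fold change 0.46). Of these, 0 were called, and their sum did not differ detectably (exact Wilcoxon test, p = 0.275). Of 5 fibroblast markers, Pdgfra fell by 0.24 on the log2 scale (edgeR FDR = 0.0194). The part of any of these in the values of the 6 clock genes was not tested. In whole muscle, fewer cells of a type and less RNA per cell cannot be told apart.

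Of the 6 genes, 3 were called at an FDR under 0.05, beside 10.8% of all tested genes. Bmal1 rose, and Nr1d1 and Nr1d2 fell, all 3 by more than 1.3-fold. Clock, Npas2 and Rora were not called. The plot of levels by mouse shows the values.

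**Figure D1:**
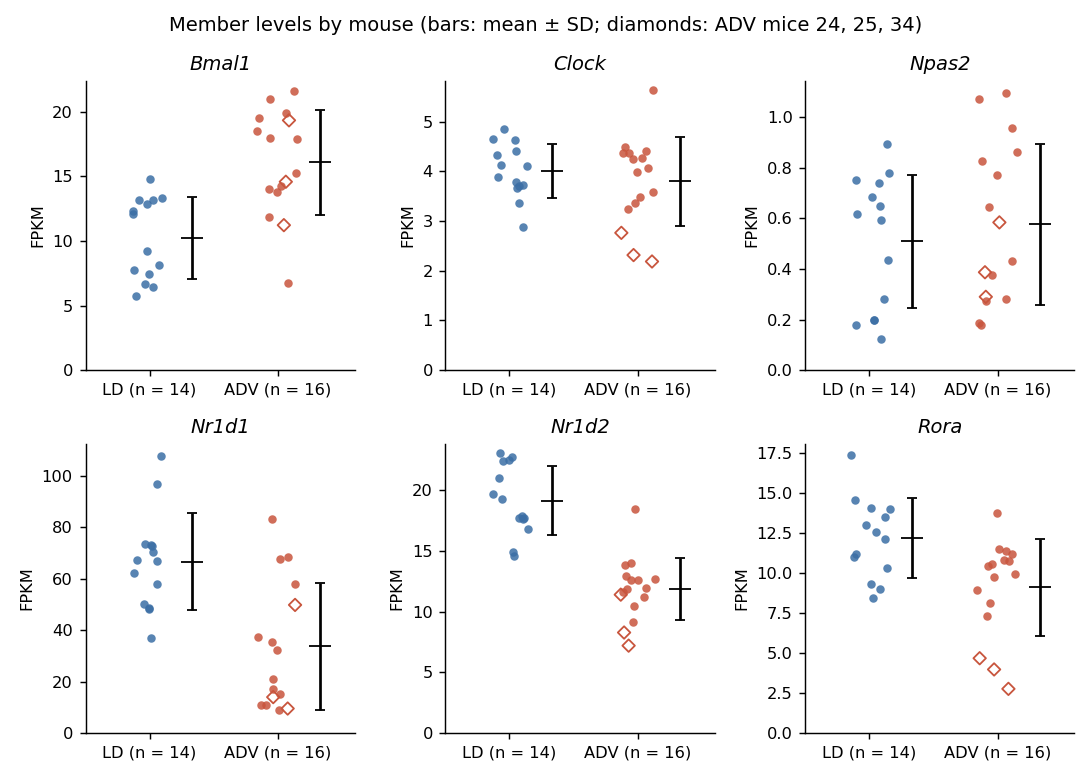
FPKM of the 6 genes in each mouse of the LD (blue, n = 14) and ADV (red, n = 16) groups, with the mean ± SD beside the points; open diamonds are ADV mice 24, 25 and 34. Nr1d2 lay lower in the ADV group with little overlap, Bmal1 lay higher with 7 of 16 ADV mice inside the LD range, Nr1d1 spread from 8.80 to 83.1 FPKM in the ADV group, and the diamonds are the 3 lowest values of Clock and Rora.

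Bmal1, the activator without which the clock stops, was higher after the shifted schedule. LD mice ranged from 5.75 to 14.8 FPKM with a median of 10.6 FPKM. ADV mice ranged from 6.75 to 21.6 FPKM with a median of 16.6 FPKM. The groups overlapped, but 15 of 16 ADV mice lay above the LD median and 9 lay above every LD mouse. The exception was ADV mouse 21, whose 6.75 FPKM was the lowest of its group. The mean rose from 10.2 ± 3.14 FPKM (SD, n = 14) to 16.1 ± 4.07 FPKM (SD, n = 16), a log2 fold change of 0.64 (SE 0.15, edgeR FDR = 0.00844), and the exact two-sided Wilcoxon rank-sum test gave p = 0.00028. The LD values themselves left a gap, with 7 mice between 5.75 and 9.23 FPKM and 7 between 12.1 and 14.8 FPKM. The sets followed runs of label numbers, with LD mice 21, 22, 23, 26, 27, 34 and 35 above the gap and 28 to 33 and 36 below it. The cause of this was not tested. The transcript counted lies at chr7:112806672-112913333 on the plus strand.

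Clock, the usual partner of BMAL1 and a histone acetyltransferase, did not differ detectably. It ranged from 2.88 to 4.85 FPKM (median 3.99) in the LD group and from 2.19 to 5.64 FPKM (median 4.03) in the ADV group. The ranges overlapped throughout, apart from ADV mice 24, 25 and 34 below the lowest LD mouse and 1 ADV mouse above the highest. The means were 4.01 ± 0.54 and 3.80 ± 0.89 FPKM (SD, n = 14 and n = 16; Wilcoxon permutation p = 0.456), and the log2 fold change was -0.09 (SE 0.10, edgeR FDR = 0.563). Its approximate 95% interval of -0.29 to 0.10 excluded a change of the size of Bmal1's. Without the 3 ADV libraries the log2 fold change was 0.02. The counted transcript lies at chr5:76357715-76452639 on the minus strand.

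Npas2, the paralog that can stand in for CLOCK, was the least abundant of the 6, with a mean of 56.3 reads and as few as 13.5 in a library. Its level ranged from 0.125 to 0.893 FPKM (median 0.605) in the LD group and from 0.180 to 1.09 FPKM (median 0.508) in the ADV group. The groups overlapped over nearly their whole range. The means were 0.509 ± 0.264 and 0.576 ± 0.317 FPKM (SD, n = 14 and n = 16; Wilcoxon permutation p = 0.589). The log2 fold change of 0.16 (SE 0.29, edgeR FDR = 0.733) had an approximate 95% interval of -0.40 to 0.72, so a change as large as that of Bmal1 was not excluded. Its transcript lies at chr1:39233293-39402317 on the plus strand.

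Nr1d1, which encodes REV-ERBα, a repressor of Bmal1 that binds haem, was the most abundant of the 6 in the LD group and fell in the ADV group. LD mice ranged from 37.0 to 107.6 FPKM with a median of 67.0 FPKM. ADV mice ranged from 8.80 to 83.1 FPKM with a median of 26.6 FPKM. Of the ADV mice, 10 lay below every LD mouse, mouse 22 lowest of all, while 3 lay above the LD median. The mean fell from 66.6 ± 18.8 FPKM (SD, n = 14) to 33.6 ± 24.6 FPKM (SD, n = 16), which is 1.99-fold lower in the fit (log2 fold change -0.996, SE 0.29, edgeR FDR = 0.0284), and the exact Wilcoxon test gave p = 0.00105. Without ADV mice 24, 25 and 34, of which 2 were low in Nr1d1, the log2 fold change was -0.91 and the edgeR FDR 0.0732, while the exact Wilcoxon test still gave p = 0.00395.

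The exons of Nr1d1 (chr11:98658758-98666159, minus strand) share 49.2% of their bases with exons of Thra, a thyroid hormone receptor gene on the opposite strand. Thra fell far less, from 23.5 ± 2.66 FPKM (SD, n = 14) to 20.8 ± 2.32 FPKM (SD, n = 16), with a log2 fold change of -0.19 (SE 0.05, edgeR FDR = 0.0252). The strand setting of the counting is not given in the sources used here, so it was read from the tables. In 30 pairs in which a transcript lay almost wholly inside the exons of a gene on the other strand, the inner transcript had at most 3.58% of the outer gene's mean FPKM (median 0.204%). Reads of 1 strand were therefore hardly counted on the other. The same holds for Clock, which shares 11.8% of its exon bases with Tmem165 on the opposite strand (log2 fold change of Tmem165 -0.06, SE 0.06, edgeR FDR = 0.583).

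Nr1d2, which encodes REV-ERBβ, the second repressor, fell with the least overlap. LD mice ranged from 14.6 to 23.1 FPKM with a median of 18.6 FPKM. ADV mice ranged from 7.20 to 18.4 FPKM with a median of 11.9 FPKM. Below the lowest LD mouse lay 15 of 16 ADV mice, and none lay above the LD median. The exception was again ADV mouse 21, at 18.4 FPKM, the mouse with the lowest Bmal1 of its group. The mean fell from 19.2 ± 2.85 FPKM (SD, n = 14) to 11.9 ± 2.57 FPKM (SD, n = 16), which is 1.63-fold lower in the fit (log2 fold change -0.70, SE 0.09, edgeR FDR = 0.000153). Its p-value ranked 1 among the 12030 genes tested, and the exact Wilcoxon test gave p = 6.19e-07. The transcript lies at chr14:4230569-4265642 on the plus strand.

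Rora encodes RORα, the activator that shares its elements with the REV-ERBs. LD mice ranged from 8.42 to 17.3 FPKM with a median of 12.3 FPKM. ADV mice ranged from 2.75 to 13.7 FPKM with a median of 10.2 FPKM. The groups overlapped, with 5 ADV mice below the lowest LD mouse, among them mice 24, 25 and 34 at 2.75 to 4.66 FPKM. The means were 12.2 ± 2.48 and 9.11 ± 3.03 FPKM (SD, n = 14 and n = 16; exact Wilcoxon test, p = 0.0104), and the log2 fold change of -0.43 (SE 0.16) did not pass the edgeR test (FDR = 0.0719). It passed with DESeq2 at the same size (FDR = 0.0494). Without the 3 ADV libraries the log2 fold change was -0.25 (edgeR FDR = 0.149) and the exact Wilcoxon test gave p = 0.0543. The transcript counted for Rora (chr9:69196964-69287091, plus strand) stands for 2572 of the 11028 exon bases that GENCODE gives it, so its level is that of part of the transcript.

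The 3 libraries were low in transcripts of low GC content, which is 41.5% for Clock, 41.4% for Rora and 42.1% for Nr1d2, against a median of 50.4% over the tested genes. In a fit with the trend along GC content taken out of every library, Nr1d2 fell by 0.61 on the log2 scale (edgeR FDR = 3.38e-05), Rora stood at -0.35 (edgeR FDR = 0.135) and Clock at 0.01 (edgeR FDR = 0.969). Bmal1, at 46.8% GC, had a log2 fold change of 0.68 and Nr1d1, at 56.8% GC, of -1.07 in that fit. Both were called there as well (edgeR FDR = 0.0114 and 0.0307).

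The order of the 6 levels was not the same in the groups. FPKM is per exon length, so levels can be compared between genes, with reservations, since the transcripts counted stand for part of the exon bases that GENCODE gives, as given for Rora, and also for Bmal1 (2869 of 4339) and Nr1d2 (4648 of 5669). In the LD group the order by mean was Nr1d1, Nr1d2, Rora, Bmal1, Clock and Npas2. Each neighbour differed from the next in all 14 mice (exact sign-flip test on log2 values, p = 0.000122, the smallest it allows), except Rora and Bmal1, of which Rora was higher in 8 of 14 mice (p = 0.136). In the ADV group Bmal1 stood second, after Nr1d1 and before Nr1d2, Rora, Clock and Npas2. Nr1d1 was above Bmal1 in 11 of 16 ADV mice (exact sign-flip test, p = 0.013), and Bmal1 above Nr1d2 in 13 of 16 (exact sign-flip test, p = 0.0179).

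Within single mice, the balance of the activator gene to the repressor genes was shifted towards Bmal1 in the ADV group. The ratio of Bmal1 to Nr1d1 had a median of 0.132 in the LD group (0.0854 to 0.399) and of 0.743 in the ADV group (0.181 to 1.73). No LD mouse reached a ratio of 1, while ADV mice 22, 23, 24, 25 and 32 exceeded it. The ratio of Bmal1 to Nr1d2 had a median of 0.567 in the LD group (0.256 to 1.01) and of 1.47 in the ADV group (0.366 to 2.69). It was above 1 in 1 of 14 LD mice and in 13 of 16 ADV mice. The ratio of Nr1d1 to Nr1d2 had a median of 3.34 in the LD group (2.09 to 7.21), where it was above 1 in all 14 mice, and of 1.94 in the ADV group (0.831 to 6.91), where it was above 1 in 12 of 16, so that the groups overlapped over most of their range. As members of these pairs were called above, no test was made on the ratios.

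**Figure D2:**
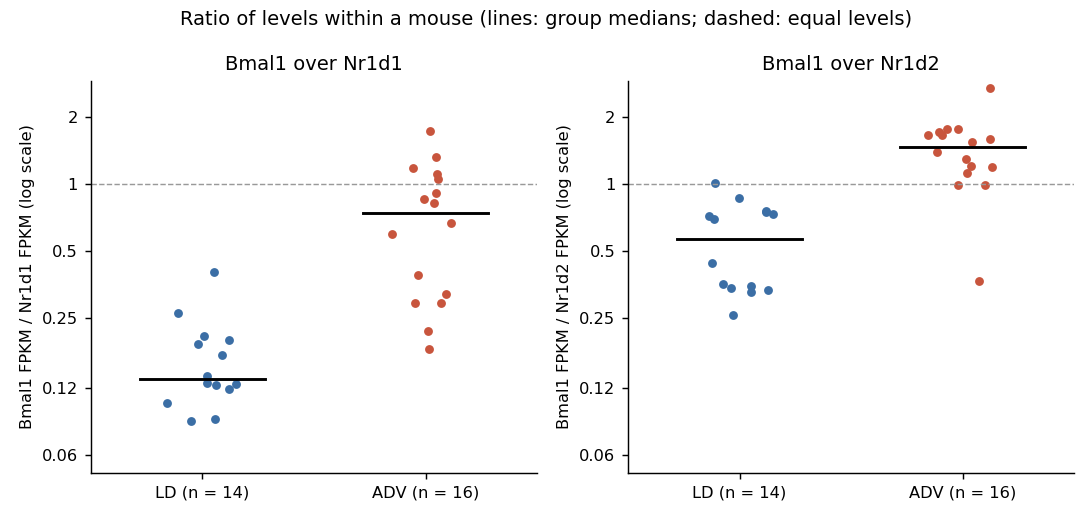
Ratio of Bmal1 FPKM to Nr1d1 FPKM (left) and to Nr1d2 FPKM (right) in each mouse, on a log axis, with the median of each group as a line and equal levels dashed. All LD mice lie below 1 on the left, where 5 ADV mice lie above it, and 13 of 16 ADV mice lie above 1 on the right, against 1 of 14 LD mice.

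Nr1d1 differed between the groups in its spread as well as in its level. The SD of log2(FPKM + 0.1) between mice was 0.41 in the LD group and 1.12 in the ADV group, a ratio of 2.77 (two-sided permutation test of the absolute deviations from the group median, p = 0.0001). The highest ADV mouse had 9.44 times the Nr1d1 of the lowest, against 2.91 times in the LD group. Of all tested genes, 0.806% had a larger SD ratio than Nr1d1, while the median ratio was 1.14 and 64.4% of the genes had a ratio over 1. The ratio was 2.76 without ADV mice 24, 25 and 34 (permutation p = 0.00115).

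The spread of the other 5 genes did not differ detectably. The SD ratio was 2.14 for Rora (permutation p = 0.282) and 0.78 without the 3 ADV libraries. For Clock it was 1.80 (permutation p = 0.155) and 1.06 without them. It was 1.45 for Nr1d2 (permutation p = 0.612), 0.97 for Npas2 (permutation p = 0.851) and 0.92 for Bmal1 (permutation p = 0.318). Npas2 was the most variable of the 6 in the LD group, with an SD of 0.74 on the log2 scale that 1.23% of tested genes exceeded, and Bmal1 followed with 0.47. Without ADV mouse 21 alone, the SD ratio of Bmal1 was 0.64 (permutation p = 0.0319).

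Correlations between the 6 genes across mice were taken within each group, so that the difference in level did not enter them, as 30 relations with p-values adjusted over all of them. In the ADV group 4 relations passed and in the LD group 3, and the relation of Bmal1 and Npas2 passed in both. Some tested genes had at least as large an absolute r to the gene named first. In the LD group their share was 0.0083% for Bmal1 and Npas2, 0.457% for Bmal1 and Nr1d2 and 9.36% for Clock and Npas2. In the ADV group it was 0.0416% for Bmal1 and Npas2 and 0.166% for Clock and Rora. There it was 0.333% for Npas2 and Nr1d1 and 7.35% for Nr1d2 and Rora. The heat maps of r give every pair.

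**Figure D3:**
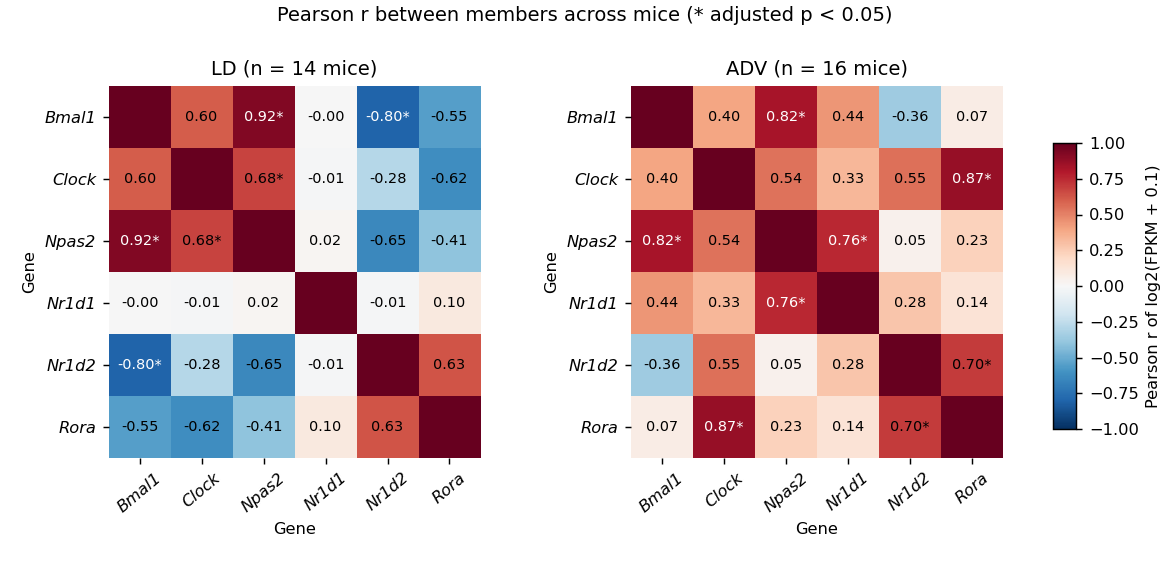
Pearson r of log2(FPKM + 0.1) between the 6 genes across the 14 LD mice (left) and the 16 ADV mice (right); an asterisk marks an adjusted permutation p under 0.05 over 30 relations. Bmal1 and Npas2 correlate in both groups (0.92 and 0.82), Bmal1 and Nr1d2 inversely in the LD group (-0.80), and Clock and Rora with opposite signs (-0.62 and 0.87).

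The 2 activator genes Bmal1 and Npas2 went together in both groups. In the LD group Pearson's r was 0.92 (permutation p = 3e-05, adjusted p = 0.00045) and Spearman's rho 0.83 (permutation p = 0.0005, adjusted p = 0.0075). Among ADV mice r was 0.82 (permutation p = 2e-05, adjusted p = 0.00045) and rho 0.83 (permutation p = 0.00012, adjusted p = 0.0036). Leaving out the 2 mice farthest from the Bmal1 median gave r of 0.89 in the LD group and 0.91 in the ADV group. Because the LD values of Bmal1 left a gap, r was also taken on each side of it, a division made after the values were seen. Among the 7 LD mice below the gap it was 0.85 (exact permutation p = 0.0117), and among the 7 above it -0.13 (exact permutation p = 0.785).

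Bmal1 and the repressor gene Nr1d2 were inversely related in the LD group, with r of -0.80 (permutation p = 0.0008, adjusted p = 0.006) and rho of -0.70 (permutation p = 0.00635, adjusted p = 0.0238). It was -0.83 without the 2 farthest mice. The 7 LD mice with low Bmal1 had 19.3 to 23.1 FPKM of Nr1d2, and the 7 with high Bmal1 had 14.6 to 17.9 FPKM, so the 2 sets did not overlap in either gene. Within the sets, in which the range of Bmal1 is narrower by construction, no relation was detected (r of 0.25 below the gap, exact permutation p = 0.577, and -0.48 above it, exact permutation p = 0.274). Among ADV mice r was -0.36 (permutation p = 0.173, adjusted p = 0.288) and rho 0.11 (permutation p = 0.679, adjusted p = 0.754), and r turned to 0.10 without ADV mouse 21.

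Bmal1 and the repressor gene Nr1d1, in contrast, were not detectably related in the LD group, with r of -0.002 (permutation p = 0.995, adjusted p = 0.995) and rho of -0.15 (permutation p = 0.605, adjusted p = 0.754). In the ADV group r was 0.44 (permutation p = 0.0803, adjusted p = 0.161) and rho 0.59 (permutation p = 0.0193, adjusted p = 0.0526). Without ADV mouse 21 alone r was 0.81 (adjusted permutation p = 0.00348), so the value of this relation is set by that mouse. Nr1d1 and Nr1d2, which are both E-box genes, had r of -0.01 in the LD group (permutation p = 0.961, adjusted p = 0.995), with rho of -0.077 (permutation p = 0.797, adjusted p = 0.797). Their r was 0.28 in the ADV group (permutation p = 0.301, adjusted p = 0.451), with rho of 0.49 (permutation p = 0.0553, adjusted p = 0.111).

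**Figure D4:**
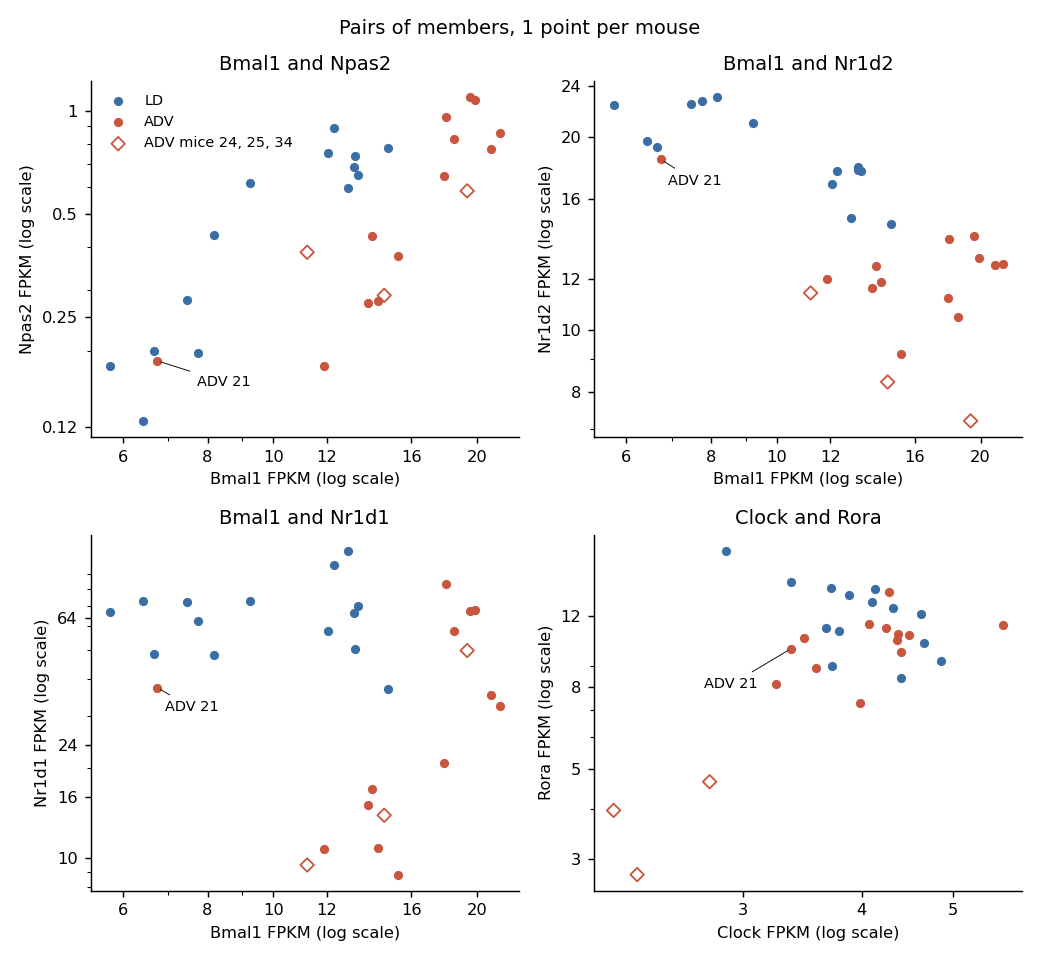
Levels of 4 pairs of genes in each mouse, on log axes in FPKM, for the LD group (blue), the ADV group (red) and ADV mice 24, 25 and 34 (open diamonds), with ADV mouse 21 named. LD mice form 2 sets along Bmal1 that also differ in Nr1d2, and the 3 diamonds lie lowest in both Clock and Rora. ADV mouse 21 lies next to the LD mice of low Bmal1 in the panels of Npas2 and Nr1d2. In Nr1d1 it lies below them, at 37.3 FPKM.

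Npas2 followed Nr1d1 among ADV mice, with r of 0.76 (permutation p = 0.00138, adjusted p = 0.00828) and rho of 0.73 (permutation p = 0.00178, adjusted p = 0.0178). It was 0.89 without the 2 farthest mice. In the LD group r was 0.02 (permutation p = 0.949, adjusted p = 0.995) and rho -0.14 (permutation p = 0.637, adjusted p = 0.754). The difference between the groups did not pass after adjustment over the 15 pairs (permutation p = 0.0125, adjusted p = 0.0938). It passed with the GC content trend removed (adjusted permutation p = 0.0476), and gave an adjusted permutation p of 0.131 without ADV mice 24, 25 and 34.

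Clock and Npas2, the 2 partners of BMAL1, were related in the LD group, with r of 0.68 (permutation p = 0.00705, adjusted p = 0.0302) and rho of 0.71 (permutation p = 0.00614, adjusted p = 0.0238). It was 0.62 without the 2 farthest mice, and lost its call in 5 of 14 fits that each left out 1 LD mouse (adjusted p up to 0.075). For ADV mice r was 0.54 (permutation p = 0.03, adjusted p = 0.0693) and rho 0.68 (permutation p = 0.00503, adjusted p = 0.0238). This r passed without ADV mice 24, 25 and 34 (0.77, adjusted permutation p = 0.0125) and with the GC content trend removed (0.74, adjusted permutation p = 0.00563). Clock and Bmal1 had r of 0.60 in the LD group (permutation p = 0.0208, adjusted p = 0.0568; rho 0.50, permutation p = 0.0691, adjusted p = 0.122). Their r among ADV mice was 0.40 (permutation p = 0.131, adjusted p = 0.246) and rho 0.65 (permutation p = 0.00739, adjusted p = 0.0246). Without ADV mice 24, 25 and 34 this r was 0.73 (adjusted permutation p = 0.0285).

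Clock and Rora were the only pair of 15 whose correlation, on log2(FPKM + 0.1) over all mice, differed between the groups after adjustment (permutation p = 0.00029, adjusted p = 0.00435). With the GC content trend removed, 4 pairs differed, these being Clock and Rora, Npas2 and Nr1d1, Clock and Nr1d2 (adjusted permutation p = 0.027) and Npas2 and Nr1d2 (adjusted permutation p = 0.0432). In the LD group r was -0.62 (permutation p = 0.0177, adjusted p = 0.053) and rho -0.58 (permutation p = 0.0333, adjusted p = 0.0769). It was -0.31 without LD mice 21 and 33, the farthest from the median, so that the LD relation on this scale rests on them. It passed on TMM-normalized CPM (-0.64, adjusted permutation p = 0.0405) and with the GC content trend removed (-0.74, adjusted permutation p = 0.00633). For ADV mice r was 0.87 (permutation p = 9e-05, adjusted p = 0.0009) and rho 0.71 (permutation p = 0.00258, adjusted p = 0.0193). It was 0.70 without the 2 farthest mice, and 0.48 (adjusted permutation p = 0.214) among the 13 ADV mice left without mice 24, 25 and 34. Without these 3 the difference between the groups did not pass (adjusted permutation p = 0.131), while with the GC content trend removed it did (adjusted permutation p = 0.0006).

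Rora and Nr1d2, the activator and the repressor gene of shared elements, had r of 0.63 in the LD group (permutation p = 0.0163, adjusted p = 0.053; rho 0.67, permutation p = 0.0113, adjusted p = 0.0338). In the ADV group r was 0.70 (permutation p = 0.0027, adjusted p = 0.0135) and rho 0.48 (permutation p = 0.0593, adjusted p = 0.111). Without the 2 farthest mice r was 0.53 in LD and 0.61 in ADV mice. Among the 13 other ADV mice it was 0.19 (adjusted permutation p = 0.705), over a narrower range of Rora. With the GC content trend removed it was 0.47 in ADV mice (adjusted permutation p = 0.124) and 0.68 in LD mice (adjusted permutation p = 0.0198), and on TMM-normalized CPM it was 0.66 in LD mice (adjusted permutation p = 0.036). Npas2 and Nr1d2 had r of -0.65 in the LD group (permutation p = 0.0138, adjusted p = 0.0518) and rho of -0.71 (permutation p = 0.00554, adjusted p = 0.0238). This r passed on TMM-normalized CPM (-0.69, adjusted permutation p = 0.0295) and with the GC content trend removed (-0.75, adjusted permutation p = 0.00633).

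Clock and Nr1d2 were the pair that moved most with the GC content trend in the LD group. On log2(FPKM + 0.1) r was -0.28 among LD mice (permutation p = 0.332, adjusted p = 0.474; rho -0.33, permutation p = 0.255, adjusted p = 0.347) and 0.55 among ADV mice (permutation p = 0.0277, adjusted p = 0.0693; rho 0.53, permutation p = 0.0367, adjusted p = 0.0786). With the trend removed it was -0.76 among LD mice (adjusted permutation p = 0.00563) and 0.20 among ADV mice (adjusted permutation p = 0.597). Without ADV mice 24, 25 and 34 the ADV value was -0.09 (adjusted permutation p = 0.912), and without the 2 farthest mice it was -0.28 in LD and 0.0072 in ADV mice.

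The LD relations of Rora depended on single mice, among them LD mouse 36, which was low in both Bmal1 (6.43 FPKM) and Rora (8.998 FPKM). Over all 14 LD mice Rora had r of -0.55 with Bmal1 (permutation p = 0.0438, adjusted p = 0.0939; rho -0.58, permutation p = 0.0333, adjusted p = 0.0769) and -0.41 with Npas2 (permutation p = 0.149, adjusted p = 0.264; rho -0.48, permutation p = 0.0867, adjusted p = 0.144). Without that mouse r was -0.81 with Bmal1 (adjusted permutation p = 0.00384), -0.75 with Npas2 (adjusted permutation p = 0.0101) and -0.74 with Clock (adjusted permutation p = 0.0142). Other single mice moved r the other way. Leaving out LD mouse 34 gave -0.45 with Bmal1, and leaving out LD mouse 33 gave -0.29 with Npas2 and -0.43 with Clock. These mice were chosen after their values were seen.

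The genes whose levels were most like each of the 6 were named from all tested genes, by Pearson r over the 30 mice after centring each value on its group mean, as a description without a test. Bmal1 was most like Npas2 (0.87), Leo1 (0.72) and Wsb1 (0.70), and least like the clock repressor genes Per3 (-0.89) and Per2 (-0.78) and Tspan4 (-0.75). Npas2 was most like Bmal1 (0.87), Sh3bp5 (0.76) and Col5a3 (0.75), and least like Per2 (-0.85), Mylk4 (-0.77) and Per3 (-0.76). Both activator genes thus had Per2 and Per3 at their opposite end. Nr1d1 was most like 2610035D17Rik (0.74), Tmco4 (0.73) and Slc41a3 (0.72), and least like the cell cycle kinase gene Wee1 (-0.74), Ell2 (-0.73) and Cys1 (-0.72).

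Rora was most like Ubr3 (0.92), Cacna2d1 (0.91) and Son (0.91), and least like Flot1 (-0.83), Fxyd1 (-0.78) and Hcfc1r1 (-0.78). Clock was most like Ptpn4 (0.86), Zfp971 (0.83) and Ipo8 (0.82), and least like Supt5 (-0.80), Sf3a2 (-0.76) and Ddx23 (-0.76). Nr1d2 was most like Hapstr1 (0.86), Ankrd12 (0.83) and Kdm6a (0.81), and least like Ccdc124 (-0.77), Keap1 (-0.74) and Gsk3a (-0.74). The low ends of these 3 genes moved with the GC content trend. With the trend removed, r of Nr1d2 with Keap1 was -0.14 and with Gsk3a -0.24, and r of Clock with Ddx23 was -0.36, while r of Bmal1 with Per3 was -0.92.

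The other genes of the loop were looked up in the same fit by lists of their roles. The plot of fold changes shows the members beside the genes named from each list.

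**Figure D5:**
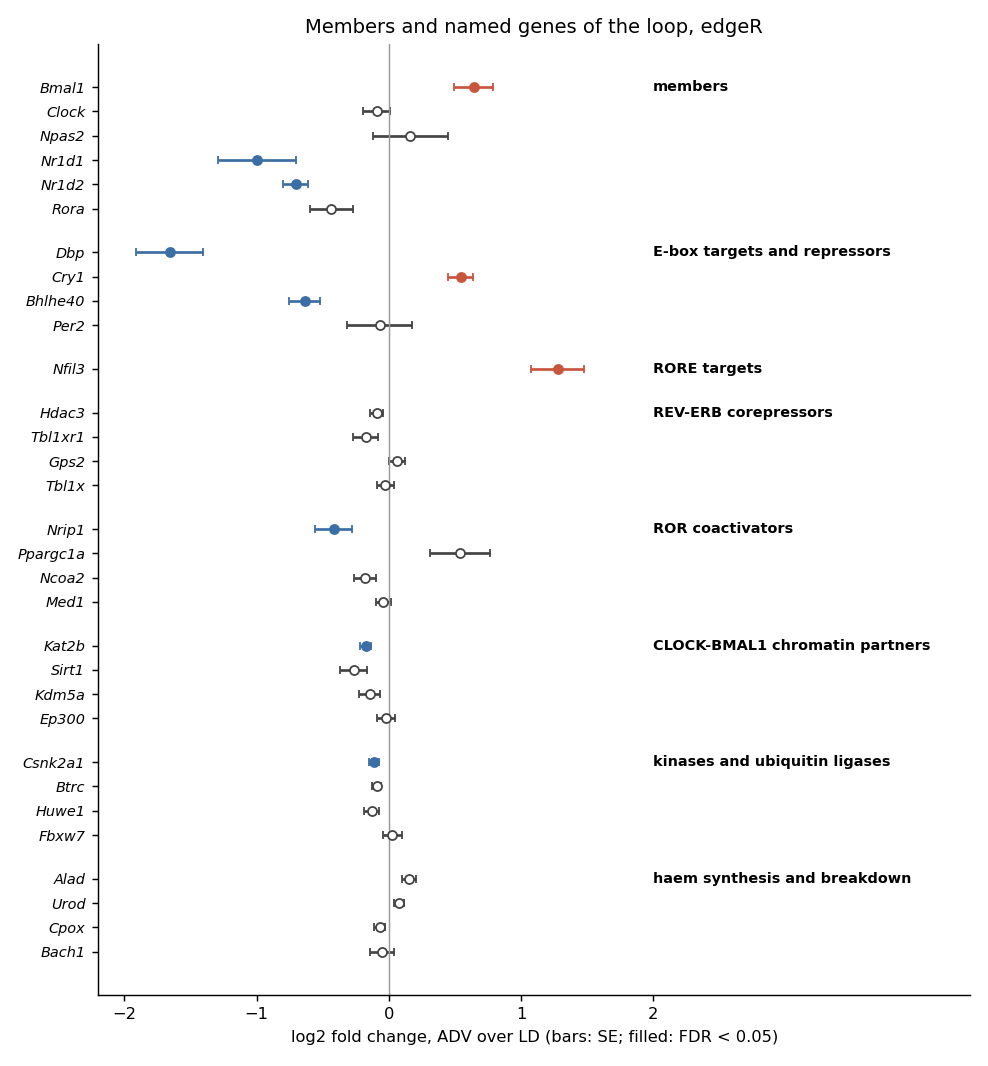
Log2 fold change, ADV over LD, with SE, of the 6 genes and of the genes named from each list of other loop genes, by edgeR over 30 mice; filled points passed an FDR under 0.05. Filled points lie on both sides of 0 among the members and the E-box genes, and the RORE gene Nfil3 lies highest at 1.28; Cry1, in both the E-box and the RORE list, is drawn once, and most of the corepressor, coactivator, chromatin, kinase and haem genes drawn lie closer to 0.

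Of the RORE genes outside the members, which the REV-ERBs repress and the RORs activate, 2 are described, and both rose, beside 5.61% of all tested genes called higher. Nfil3, a transcription factor gene opposed to Dbp, rose from 14.3 ± 5.22 to 35.01 ± 13.2 FPKM (SD, n = 14 and n = 16), a log2 fold change of 1.28 (SE 0.20, edgeR FDR = 0.000489). Cry1, a repressor of CLOCK and BMAL1, rose by 0.54 on the log2 scale (SE 0.09, edgeR FDR = 0.00142). Of the paralogs of the members, Bmal2 and Rorb were below the minimum for testing.

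Of the 16 E-box genes and repressors, 7 fell (Dbp, Bhlhe40, Per3, Ciart, Tef, Hlf and Usp2), 2 rose (Cry1 and Myod1) and 7 did not pass, with a median log2 fold change of -0.29. Dbp, a clock output factor, fell by 1.66 on the log2 scale (SE 0.25, edgeR FDR = 0.000482), and Bhlhe40, which competes for E-boxes, fell by 0.64 (SE 0.12, edgeR FDR = 0.00152). Per2, whose protein represses CLOCK and BMAL1, stood at -0.07 (SE 0.25, edgeR FDR = 0.877). The falls of Nr1d1 and Nr1d2, -0.996 and -0.70, lay between those of Dbp and Bhlhe40, beside 5.20% of all tested genes called lower.

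The protein partners of the loop were looked up next, beside 10.8% of all tested genes called and 5.20% called lower. Of 5 corepressor genes of the REV-ERBs that are described, edgeR and DESeq2 called 0. Hdac3 stood at -0.09 (edgeR FDR = 0.183), Tbl1xr1 at -0.18 (FDR = 0.212), Gps2 at 0.06 (FDR = 0.503) and Tbl1x at -0.02 (FDR = 0.825). Of 6 ROR coactivator genes, Nrip1 fell by 0.42 (SE 0.14, edgeR FDR = 0.0468), while Ppargc1a, which encodes PGC-1α, stood at 0.54 (SE 0.23, FDR = 0.112), Ncoa2 at -0.18 (FDR = 0.154) and Med1 at -0.04 (FDR = 0.643). Of 6 chromatin partners of CLOCK and BMAL1, the acetyltransferase gene Kat2b fell by 0.18 (SE 0.04, edgeR FDR = 0.0135), and Sirt1 (-0.27, FDR = 0.0746), Kdm5a (-0.14, FDR = 0.219) and Ep300 (-0.02, FDR = 0.852) were among the 5 that did not pass. Of 12 kinase and ubiquitin ligase genes that act on clock proteins, Csnk2a1 fell by 0.11 (SE 0.04, edgeR FDR = 0.0442), and Btrc (-0.09, FDR = 0.0889), Huwe1 (-0.13, FDR = 0.112) and Fbxw7 (0.03, FDR = 0.837) were among the 11 that did not. In the coactivator, chromatin and kinase lists 1 gene each was called, which is near the share over all tested genes.

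Haem is the ligand of the REV-ERBs. Of 10 genes described from its synthesis and breakdown, 0 were called by edgeR, beside 10.8% of all tested genes. DESeq2 called 1 of them, Alad, an early enzyme of haem synthesis (log2 fold change 0.15, SE 0.05, edgeR FDR = 0.0583, DESeq2 FDR = 0.0472). Over all tested genes DESeq2 called 1679 of 12030. Urod stood at 0.08 (FDR = 0.164), Cpox at -0.07 (FDR = 0.293) and Bach1, a haem-binding repressor, at -0.05 (FDR = 0.727). The median log2 fold change of these 10 genes was 0.05, beside 0.0029 for all tested genes.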

How the data were processed

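The authors trimmed the reads, mapped them to GRCm39 with STAR 2.7.10a, removed reads with a mapping quality under 10 and counted exon reads of 57186 transcripts with HOMER 4.11. The deposited raw counts are estimated counts, since each mate counts as 0.5, and the authors deposited FPKM values for the same transcripts. Program versions come from the submitters' processing notes.

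Counts were rounded. With 1 transcript per symbol, 12030 genes passed minimums of 20 reads and 0.5 FPKM on average and entered edgeR 4.0.16 with TMM normalization, the quasi-likelihood F test and the Benjamini-Hochberg FDR. The SE of a log2 fold change was derived from this test, as its absolute value over the square root of F. The approximate 95% intervals reach 1.96 of these SEs to each side, a normal approximation. FPKM values were compared with Wilcoxon rank-sum tests, exact or by 100000 permutations where values tied, and spreads and correlations on log2(FPKM + 0.1) with 100000 permutations (Python 3.11.15, scipy 1.17.1). Alternatives were DESeq2 1.42.0, limma 3.58.1, other scalings and filters, the label number as a block and leaving out each mouse. GC content trends were removed with a natural spline (4 degrees of freedom). Its use on Wilcoxon tests, spreads and correlations, leaving out ADV mice 24, 25 and 34, and the wider promoter window were added after seeing the data. GC content, exon overlaps and promoters came from GENCODE vM39 and GRCm39, the build of the files. The tests were checked on simulated data. Libraries of a group differed by more than sampling noise (chi-square per degree of freedom at least 10.6).

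The members and lists were chosen with earlier results of these data known. Some genes of the lists are not reported here, and the lists' counts and medians leave them out, so these cover part of each list. Genes named were the members, the up to 3 genes of lowest and the 1 of highest FDR in each list, the 3 most and 3 least like each member, and tested genes whose exons overlap a member's. E-box genes that passed were named as well, after their values were seen.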

Additional observations from a re-analysis of the deposited data

Results flagged for a closer look

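The correlation of Clock with Rora differed between the groups. Pearson's r was -0.62 among 14 LD mice and 0.87 among 16 ADV mice, and the permutation test of this difference gave an adjusted p of 0.00435 over 15 pairs. With each value scaled by the SD of its group the adjusted permutation p was 0.0221. Without ADV mice 24, 25 and 34, which had 2.19 to 2.76 FPKM of Clock and 2.75 to 4.66 FPKM of Rora, it was 0.131. These 3 were chosen as the lowest in both genes, so leaving them out narrows the range of both by construction. With the GC content trend removed, over all mice, the adjusted permutation p was 0.0006.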

How the results depend on the processing

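The log2 fold changes and Wilcoxon tests of Bmal1 and Nr1d2 kept their direction and their call under every alternative run, and those of Nr1d1 under the 30 fits without single mice. For Nr1d1 the call was lost, with the direction kept, without a filter on low genes (log2 fold change -0.99, FDR 0.0502), with 28 libraries and no block (-0.87, FDR 0.0658) and without ADV mice 24, 25 and 34 (-0.91, FDR 0.0732). Rora was called with DESeq2 (-0.43, FDR 0.0494), and its Wilcoxon p was 0.0543 without these 3 mice. Leaving out 1 mouse at a time, the log2 fold change of Rora ranged from -0.48 (without ADV mouse 35, FDR 0.0486) to -0.37. The log2 fold change of Clock turned to 0.0075 with the GC content trend removed and to 0.024 without the 3 mice. Its difference in medians turned with CPM (Wilcoxon p = 0.377) and TPM (0.498) and ranged from p = 0.275 to 0.629 without single mice, and that of Npas2 turned without the 3 mice (p = 0.381). The spread ratio of Npas2 was 1.10 on log2(FPKM + 1), 1.04 without the 3 mice and 0.91 to 1.07 without single mice. That of Rora was 0.78 without the 3 mice, and that of Bmal1 0.64 to 0.998 without single mice. The 0.64 (permutation p = 0.0319) came without ADV mouse 21, whose omission narrows the ADV range of Bmal1 by construction. The cause of these changes was not tested.

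Genes with an FDR under 0.05 numbered 629 without a filter, 602 with the GC content trend removed, 481 without the 3 mice and 835 to 1542 without single mice, against 1301. The count of 835 came without LD mouse 28. DEGs numbered 124 with limma on log2(FPKM + 1) and 125 without the 3 mice, against 252. A replicate block on the label number, over the 28 libraries with shared numbers, gave 494 genes and 137 DEGs, against 616 and 151 for the same libraries without it, with Bmal1 at 0.69 (FDR 0.0353), Nr1d1 at -1.16 (FDR 0.0219), Nr1d2 at -0.68 (FDR 0.00151) and Rora at -0.37 (FDR 0.0861). Whether the numbers pair the mice cannot be told from these values. Between same-numbered mice r ranged from -0.26 to 0.43 with 6 of 14 over 0.1, and 3 correlated best with their own number.

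Correlations near 0 changed sign. In the LD group r of Nr1d1 with Nr1d2 was 0.00074 on CPM, 0.12 with the GC content trend removed and -0.41 to 0.30 without single mice. Bmal1 with Nr1d1 ranged from -0.16 to 0.27, Clock with Nr1d1 from -0.28 to 0.13 (0.10 with the trend removed), Npas2 with Nr1d1 from -0.14 to 0.21 (-0.011 with the trend removed, rho -0.14) and Nr1d1 with Rora from -0.24 to 0.30 (rho -0.081). Bmal1 with Clock passed in the LD group with the trend removed (0.78) and ranged from 0.54 to 0.67 without single mice. In the ADV group it passed as rho (0.65), with the trend removed (0.56) and without the 3 mice (0.73). Also in the ADV group, Bmal1 with Nr1d2 was 0.11 as rho and -0.42 to 0.10 without single mice, Bmal1 with Nr1d1 0.38 to 0.81, Bmal1 with Rora -0.035 to 0.28 and Npas2 with Nr1d2 -0.058 to 0.35. Without the 3 mice Clock with Nr1d2 was -0.094 and Npas2 with Nr1d2 -0.051.

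The p-values set differences and relations against the variation between the 30 mice. Npas2, with a mean of 56.3 reads, carries the largest counting error of the 6 genes, and intervals cover no difference in the hour of sampling.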
